A study of Homo sapiens with 6 samples.

Results

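The genes described here are 9 that encode AKT kinases and subunits of the mTOR complexes: AKT1, AKT2, MTOR, MLST8, DEPTOR, RPTOR, AKT1S1, RICTOR and MAPKAP1. They were picked by gene name from a table of 60612 genes, all 9 were found once, and all 9 were among the 18863 genes that passed the filter on low counts. Messenger RNA came from PANC-1, an established line from a human pancreatic carcinoma that grows as an epithelial culture. Cells of 3 libraries had received D(+)-raffinose pentahydrate, a plant trisaccharide, at 50 µM over 24 h. For the other 3, called untreated here, the labels name no compound, vehicle or time. All cells were grown in the same medium with 10% fetal bovine serum, so growth factors and amino acids were present in both groups. The series title names PI3K/AKT signalling, apoptosis and proliferation as its subject.

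AKT kinases are serine/threonine kinases that bind lipids made by PI3K at the plasma membrane and are switched on by phosphorylation. The kinase mTOR works in 2 complexes. In mTORC1 it is held by the scaffold raptor (RPTOR) and drives protein synthesis and cell growth, and in mTORC2 it is held by rictor (RICTOR) and SIN1 (MAPKAP1) and phosphorylates AKT itself. Both complexes contain mLST8 (MLST8) and can bind the inhibitor DEPTOR, while PRAS40 (AKT1S1) inhibits mTORC1 and is a substrate of AKT. The activity of all of these proteins is set largely by phosphorylation, which messenger RNA levels do not show. PANC-1 is described as carrying extra copies of the AKT2 region on the long arm of chromosome 19.

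Levels are given first as FPKM, the deposited value scaled to transcript length and library size, which lets genes be compared with each other. AKT2 was the most abundant of the 9 transcripts in both groups, at 58.7 ± 2.65 FPKM without and 54.9 ± 1.48 FPKM with raffinose (SD, n = 3 per group here and below). In untreated cells MAPKAP1 (13.0 ± 1.64), MTOR (11.2 ± 1.37), AKT1 (9.48 ± 0.706) and MLST8 (8.95 ± 0.508) came next, and each of these overlapped its neighbour in the order. AKT1S1 (6.21 ± 0.208), RPTOR (3.96 ± 0.0618), RICTOR (1.65 ± 0.617) and DEPTOR (0.285 ± 0.0803 FPKM) followed with no overlap between neighbours. In raffinose-treated cells the order was AKT2, MTOR, MAPKAP1, AKT1S1, AKT1, MLST8, RPTOR, RICTOR and DEPTOR. There MAPKAP1 overlapped AKT1S1 and AKT1S1 overlapped AKT1, while the other neighbours stood apart.

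**Figure D1:**
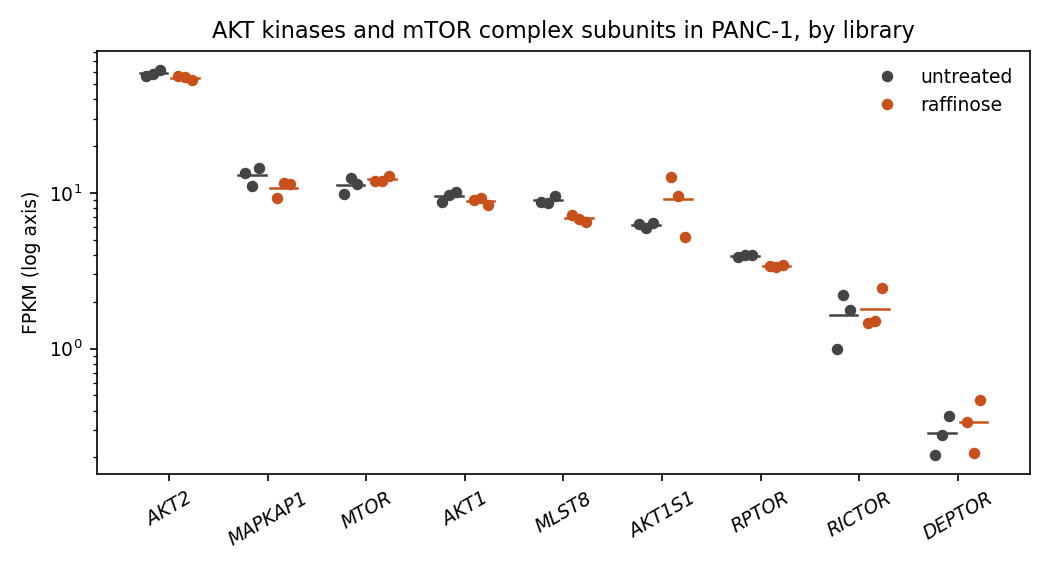
FPKM of the 9 genes on a log axis, with 1 point a library and a line at the mean of the 3 untreated (grey) or 3 raffinose (orange) libraries. AKT2 lies above all others at 53.3 to 61.6 FPKM, DEPTOR lies lowest at 0.208 to 0.468 FPKM, and the groups stand apart for AKT2, MLST8 and RPTOR.

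The total count per library was 59723420 to 66063664 in the deposited units, in which 1 read pair seems to add 4. Whether replicate libraries stem from different cultures is not in the labels, and the tests may measure technical spread alone. In bulk RNA, a change in the share of some cells and a change in RNA per cell cannot be told apart. Of 6 epithelial markers, KRT8, KRT18 and CDH1 had a mean of at least 1 FPKM, and KRT19 and EPCAM, which many pancreatic ductal cells express, stayed under that level in all libraries. The summed level of the 6 was 851 to 988 FPKM in untreated and 655 to 687 FPKM in raffinose libraries. The 5 fibroblast markers summed to 3.33 to 3.72 and 3.95 to 4.36 FPKM, nearly all of it COL1A1. The 4 leukocyte markers reached at most 0.300 FPKM in sum, with CD3E listed at 0.0001 throughout, and the 4 endothelial markers at most 0.117. Both the epithelial and the fibroblast sums were apart between the groups, where 21.5% of single tested genes did not overlap in CPM. The epithelial sum rests on the 3 markers with a mean of at least 1 FPKM. The part of both sums in the results below was not tested.

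None of the 9 genes was called by edgeR at a Benjamini-Hochberg adjusted p under 0.05, a rule that called 0.122% of all tested genes, 0.0371% higher and 0.0848% lower. At an unadjusted p under 0.05 there were 3 members, AKT2, MLST8 and RPTOR, where 13.3% of all genes met that mark. The same 3 genes had levels in CPM (counts scaled to library size, with TMM factors) that did not overlap between the groups, all lower with raffinose. Of all tested genes 21.5% did not overlap, 10.9% lower and 10.6% higher with raffinose. DESeq2 called 2 members lower, MLST8 and RPTOR, and none higher. It called 3.51% of all genes, 2.17% lower and 1.35% higher. In simulated counts it made 74 false calls at this threshold, beside 8 by edgeR. In the same counts edgeR recovered 0% of genes changed 1.5-fold. The folds of the 9 genes lay between 0.746 (MLST8) and 1.44 (AKT1S1), so a lack of edgeR calls cannot show unchanged levels. Of the 9 log2 fold changes 4 were positive and 5 negative, with a median of -0.13 beside 0.0059 over all tested genes.

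**Figure D2:**
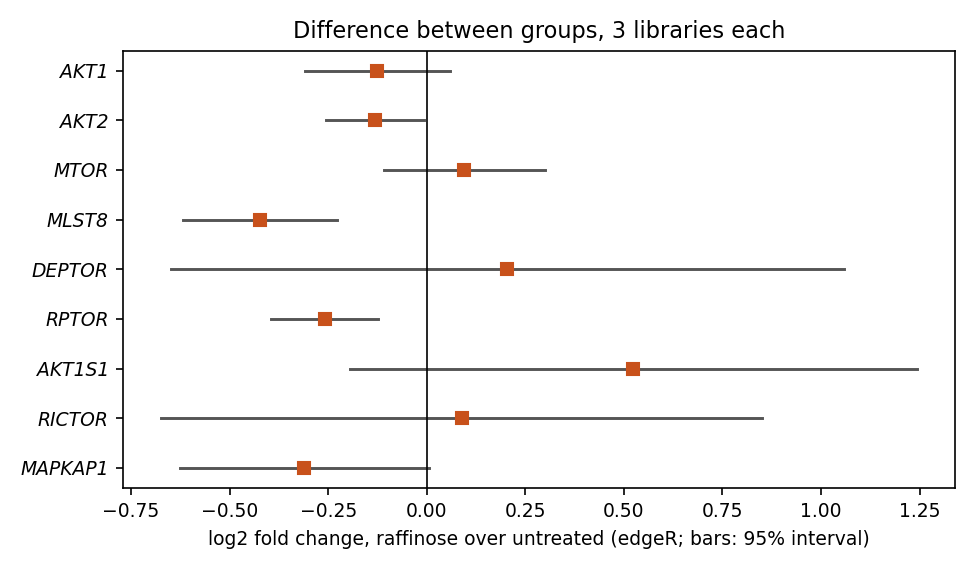
Log2 fold change of raffinose over untreated for each gene from edgeR, with bars for the 95% interval. MLST8 (-0.42) and RPTOR (-0.26) have intervals wholly below 0, that of AKT2 ends just below 0, and those of DEPTOR, AKT1S1 and RICTOR are the widest.

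Neither AKT kinase passed the test, and both had folds close to 1. AKT1 (ENSG00000142208, chromosome 14, 104769349 to 104795679, minus strand), the kinase best known for survival and growth signalling, was at 8.70, 9.67 and 10.1 FPKM in untreated replicates 1, 2 and 3 and at 9.03, 9.32 and 8.37 FPKM in raffinose replicates 1, 2 and 3. The groups overlapped, and raffinose replicate 3 was the lowest of the 6. Its fold was 0.917, with a 95% interval of 0.807 to 1.04 (edgeR log2 fold change -0.13, SE 0.077, adjusted p = 0.542). AKT2 (ENSG00000105221, chromosome 19, 40230317 to 40285536, minus strand), the AKT kinase tied most closely to insulin-driven glucose uptake, was at 56.4, 58.1 and 61.6 FPKM without and 56.1, 55.5 and 53.3 FPKM with raffinose. Every raffinose library was below every untreated one, though in FPKM the closest pair, the replicates numbered 1, differed by 0.505%. In CPM, from the counts that gave the fold, the closest values were 1107 (untreated replicate 2) and 1060 (raffinose replicate 2). The fold of AKT2 was 0.913, with an interval of 0.837 to 0.996 (log2 fold change -0.13, SE 0.052, edgeR adjusted p = 0.358). These intervals are not widened for the number of genes tested. Over 15 other settings the log2 fold change of AKT2 lay between -0.15 and -0.093 and its adjusted p between 0.305 and 0.616.

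Within a library the ratio of AKT2 to AKT1 does not depend on library scaling. It was 6.47, 6.01 and 6.11 in untreated replicates 1, 2 and 3 and 6.21, 5.95 and 6.36 in raffinose replicates 1, 2 and 3, from FPKM. The means of 6.20 ± 0.244 and 6.18 ± 0.210 differed by -0.0051 on the log2 scale (exact two-sided permutation test, p = 0.9, where 3 against 3 can reach no less than 0.1). The sign of this small difference turned when raffinose replicate 2 or untreated replicate 1 was left out.

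**Figure D3:**
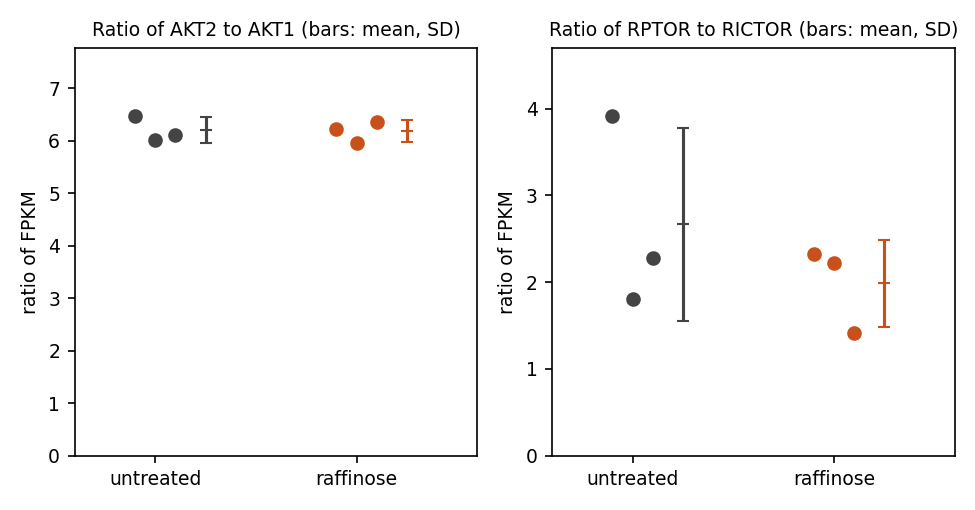
Ratio of FPKM per library for AKT2 to AKT1 (left) and RPTOR to RICTOR (right), with 1 point a library and the mean and SD beside each group. The AKT2 to AKT1 ratio lies between 5.95 and 6.47 in all 6 libraries, while the RPTOR to RICTOR ratio spreads from 1.41 to 3.92.

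AKT2 ranked at place 619 of the 18863 tested genes by mean FPKM, and AKT1 at place 4044. The 43 tested protein-coding genes within 1 Mb of AKT2 had a median of 11.6 FPKM, beside 3.76 FPKM over all 13617 such genes. The same median around the other 8 members ran from 0.560 near DEPTOR to 6.92 near MTOR. On the side of lower coordinates 23 genes had a median of 28.7 FPKM, and 8 of them were above AKT2. The highest was the ribosomal protein gene RPS16 (1669). Others were FBL, the nucleolar methyltransferase fibrillarin (1043), PSMC4, a proteasome ATPase (853), and PAF1, a subunit of an RNA polymerase II elongation complex (446). The nearest genes on that side, CCNP, TTC9B and MAP3K10, were at 0.188, 1.15 and 28.7 FPKM. On the other side 20 genes had a median of 4.73 FPKM and 1 was above AKT2, AXL, a receptor tyrosine kinase (63.6). This split was chosen after the levels were seen, DNA copies were not measured, and levels of such genes in other cells were not analysed here. None of the 43 was called between the groups (edgeR adjusted p at least 0.194), and 23 had a positive log2 fold change.

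**Figure D4:**
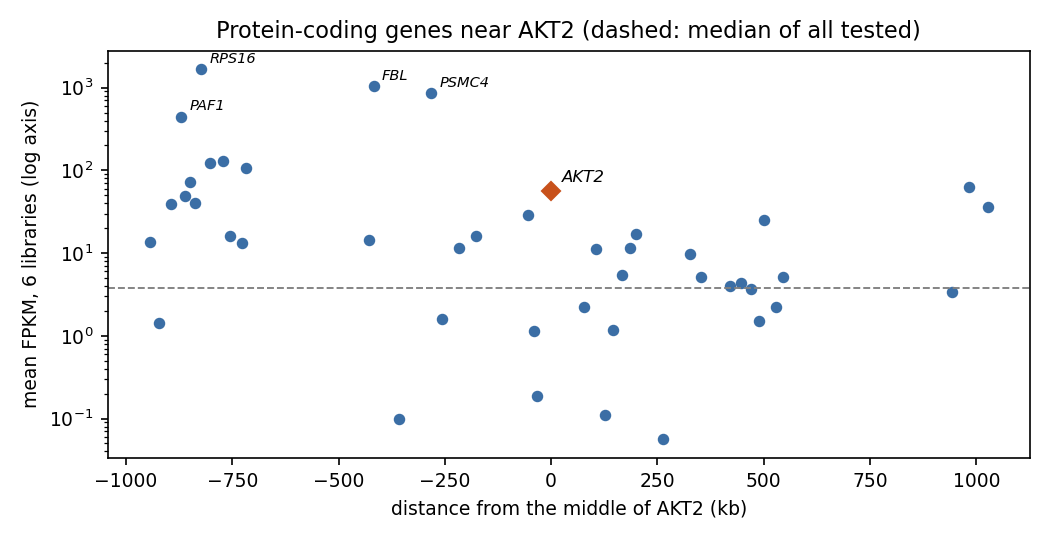
Mean FPKM over 6 libraries (log axis) of protein-coding genes within 1 Mb of AKT2, by distance between gene middles. AKT2 (diamond) is at 56.8 FPKM, the 7 genes above 100 FPKM all lie on the side of lower coordinates, and the dashed line marks the median of 3.76 FPKM over all tested protein-coding genes.

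By the smallest root mean square distance between log2 CPM profiles, each centred on its mean over the 6 libraries, the genes most like AKT2 were TUBA1C (0.0103), ATG101 (0.0127) and DNAJC17 (0.0164), out of 11700. For AKT1 they were OXA1L (0.0227), TMEM187 (0.0229) and KIF20A (0.0243). The nearest of 11700 profiles over 6 libraries are close by selection, and shared regulation was not tested.

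Of the subunits shared by both complexes, only MLST8 had groups that did not overlap. MTOR (ENSG00000198793, chromosome 1, 11106535 to 11262551, minus strand), the kinase itself, was at 9.79, 12.5 and 11.4 FPKM in untreated replicates 1, 2 and 3 and at 12.0, 12.0 and 12.9 FPKM in raffinose replicates 1, 2 and 3. The groups overlapped through untreated replicate 2. The fold was 1.07, with an interval of 0.928 to 1.23 (edgeR log2 fold change 0.096, SE 0.085, adjusted p = 0.683). The log2 fold change was 0.019 without untreated replicate 1 and 0.17 without untreated replicate 2. MLST8 (ENSG00000167965, chromosome 16, 2204248 to 2209453, plus strand), a WD-repeat protein that binds the kinase domain of mTOR, was at 8.78, 8.55 and 9.52 FPKM without and 7.24, 6.83 and 6.47 FPKM with raffinose. The 3 raffinose libraries were the lowest, 15.3% apart from the nearest untreated one. The fold was 0.746, with an interval of 0.652 to 0.854 (log2 fold change -0.42, SE 0.081, unadjusted p = 0.00155 and adjusted p = 0.146 by edgeR). DESeq2 gave an adjusted p of 0.00291. Over all 15 other settings it was lower with raffinose, with log2 fold changes of -0.47 to -0.34 and adjusted p of 0.00291 to 0.433, and DESeq2 was the only one that called it.

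The 3′ end of MLST8 overlaps that of BRICD5 on the opposite strand (2209253 to 2211950). BRICD5 was at 0.243, 0.276 and 0.248 FPKM in untreated replicates 1, 2 and 3 and at 0.461, 0.474 and 0.535 FPKM in raffinose replicates 1, 2 and 3, opposite in direction to MLST8 (log2 fold change 0.89, SE 0.21, edgeR adjusted p = 0.185). Its deposited counts were 38 to 85, beside 2125 to 3063 for MLST8. Whether the counting separated the strands is not given in the sources used here.

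DEPTOR (ENSG00000155792, on chromosome 8, plus strand) rested on few reads. Its level was 0.208, 0.279 and 0.368 FPKM in untreated replicates 1, 2 and 3 and 0.338, 0.214 and 0.468 FPKM in raffinose replicates 1, 2 and 3. Deposited counts of 43 to 93 correspond to about 10.8 to 23.3 read pairs if 1 pair adds 4. The groups overlapped widely, and the fold of 1.152 had an interval of 0.638 to 2.08 (edgeR adjusted p = 0.85). Folds within that interval are compatible with these libraries, and the interval is not a limit of detection. The sign turned without raffinose replicate 3.

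Of the genes of mTORC1, RPTOR had lower values in every raffinose library, AKT1S1 had uneven ones, and neither passed the edgeR test. RPTOR (ENSG00000141564, chromosome 17, 80544819 to 80966368, plus strand), the scaffold that brings substrates to mTORC1, was at 3.89, 3.98 and 4.0 FPKM in untreated replicates 1, 2 and 3 and at 3.38, 3.34 and 3.46 FPKM in raffinose replicates 1, 2 and 3. Libraries within each group lay close together, and the groups did not overlap. In CPM the means were 49.6 ± 0.287 and 41.4 ± 0.145. Deposited counts of 2617 to 3192 correspond to about 654 to 798 read pairs if 1 pair adds 4. Sampling of that many pairs would by itself spread libraries by more than these SDs. The SDs are thus no measure of how precise the difference is. The fold was 0.836, with an interval of 0.761 to 0.918 (log2 fold change -0.26, SE 0.057, unadjusted p = 0.00306 and adjusted p = 0.17 by edgeR). DESeq2 gave an adjusted p of 0.00984 and was the only one of 15 other settings that called it. Log2 fold changes over those settings were -0.26 to -0.17 and adjusted p 0.00984 to 0.446.

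AKT1S1 (ENSG00000204673, chromosome 19, 49869033 to 49878356, minus strand), which encodes PRAS40, was at 6.29, 5.98 and 6.37 FPKM in untreated replicates 1, 2 and 3 and at 12.7, 9.59 and 5.21 FPKM in raffinose replicates 1, 2 and 3. Raffinose replicates 1 and 2 were above every untreated library and replicate 3 was below every one. The SD was 0.208 FPKM without and 3.74 FPKM with raffinose. The fold of 1.44 had an interval of 0.874 to 2.37 (log2 fold change 0.52, SE 0.30, edgeR adjusted p = 0.514). It moved to a log2 fold change of 0.81 without raffinose replicate 3 (adjusted p = 0.213) and to 0.22 without raffinose replicate 1 (adjusted p = 0.831). The start of AKT1S1 overlaps TBC1D17, which codes for a Rab GTPase-activating protein, on the opposite strand (49877425 to 49888749). TBC1D17 had counts of 2246, 2323 and 2277 in raffinose replicates 1, 2 and 3, and so lacked the spread of AKT1S1, at 5520, 4186 and 2246.

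In mTORC2, neither RICTOR nor MAPKAP1 passed the test. RICTOR (ENSG00000164327, chromosome 5, 38937920 to 39074399, minus strand), the scaffold of the complex, was at 0.991, 2.21 and 1.76 FPKM in untreated replicates 1, 2 and 3 and at 1.45, 1.502 and 2.45 FPKM in raffinose replicates 1, 2 and 3. Libraries of 1 group differed by more than the group means did. The fold of 1.06 had an interval of 0.627 to 1.80 (edgeR adjusted p = 0.938), and its sign turned without raffinose replicate 3 or untreated replicate 1. The end of RICTOR overlaps OSMR, a cytokine receptor gene on the opposite strand with counts of 14250 to 17742, beside 1071 to 2489 for RICTOR. MAPKAP1 (ENSG00000119487, chromosome 9, 125437393 to 125707234, minus strand), whose product SIN1 directs mTORC2 to AKT, was at 13.4, 11.2 and 14.3 FPKM without and 9.21, 11.5 and 11.5 FPKM with raffinose. Untreated replicate 2 lay within the raffinose range, and the other untreated libraries above it. The fold was 0.807, with an interval of 0.648 to 1.004 (log2 fold change -0.31, SE 0.13, unadjusted p = 0.0532 and adjusted p = 0.381 by edgeR).

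The ratio of RPTOR to RICTOR, the scaffolds that set the complexes apart, was 3.92, 1.80 and 2.28 in untreated replicates 1, 2 and 3 and 2.33, 2.22 and 1.41 in raffinose replicates 1, 2 and 3. The means of 2.67 ± 1.11 and 1.99 ± 0.499 differed by -0.38 on the log2 scale (exact two-sided permutation test, p = 0.5, with 0.1 the smallest possible). Untreated replicate 1, the library with the lowest RICTOR, had the highest ratio, and without it the log2 difference was -0.061.

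The stretches just upstream of the first annotated start of MTOR, RICTOR and RPTOR are shown because these genes define the complexes and their transcripts differ in level and in spread. They are from RefSeq on GRCh38.p14, read 5′ to 3′ on the strand of the gene. They lie at chr1:11262552-11262801 for MTOR, chr5:39074409-39074649 for RICTOR and chr17:80544588-80544818 for RPTOR. Capitals mark matches on either strand to the GC box GGGCGG, the CCAAT box CCAAT, the E-box CACGTG and the forkhead motif TGTTTAC.
MTOR: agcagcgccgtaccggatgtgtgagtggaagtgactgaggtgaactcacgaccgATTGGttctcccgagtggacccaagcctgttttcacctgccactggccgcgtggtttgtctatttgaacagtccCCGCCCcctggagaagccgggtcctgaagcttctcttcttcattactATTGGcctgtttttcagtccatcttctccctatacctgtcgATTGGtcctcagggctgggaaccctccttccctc
RICTOR: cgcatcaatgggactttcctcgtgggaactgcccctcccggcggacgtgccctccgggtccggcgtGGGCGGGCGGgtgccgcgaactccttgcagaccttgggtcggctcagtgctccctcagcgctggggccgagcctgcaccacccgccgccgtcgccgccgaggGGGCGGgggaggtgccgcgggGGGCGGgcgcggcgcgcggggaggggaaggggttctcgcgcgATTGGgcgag
RPTOR: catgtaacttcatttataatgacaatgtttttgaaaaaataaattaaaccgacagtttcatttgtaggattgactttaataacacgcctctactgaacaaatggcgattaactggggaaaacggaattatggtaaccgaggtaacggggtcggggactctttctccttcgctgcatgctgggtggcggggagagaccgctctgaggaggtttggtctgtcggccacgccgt
The RICTOR stretch is 76.8% G and C with 34 CpG pairs in 241 bases, and holds 4 GC boxes, 2 of them overlapping, and 1 CCAAT box. The MTOR stretch is 55.6% G and C with 11 CpG pairs in 250 bases, 1 GC box and 3 CCAAT boxes. The RPTOR stretch is 45.5% G and C with 13 CpG pairs in 231 bases and holds none of the 4 motifs. The RefSeq table had 8 windows of 300 bases for 6 of the members, AKT1, AKT2, MTOR, RPTOR, RICTOR and MAPKAP1. A GC box was in 7 of these 8 windows and in 45.0% of all 35116 windows, and a CCAAT box in 3 of 8 and in 34.6%. The 7 windows belong to AKT1, AKT2, MAPKAP1, MTOR and RICTOR, so windows of the same gene are counted apart. The E-box was in 0 of 8 and in 7.26%, and the forkhead motif in 0 of 8 and in 3.42%. These matches of letters describe the windows only, and say nothing of factors bound in these cells.

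Other genes of the pathway were taken from 8 lists with 94 genes, of which 90 were tested. The lists were chosen with earlier results of these data known, so the counts below are not independent of these data. By edgeR 0 of the 90 were called, and 21 had an unadjusted p under 0.05, a mark met by 13.3% of all genes. Of the log2 fold changes 45 were positive and 45 negative, with a median of 0.0035. Of all tested genes 51.0% were positive. The groups did not overlap for 21 genes higher and 7 lower, where 10.6% and 10.9% of all genes did so. DESeq2 called 6 higher, PIK3R3, CASTOR2, DDIT4, EIF4B, FOXO1 and FOXO4, and 1 lower, NPRL3, where it called 1.35% of all genes higher and 2.17% lower.

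Upstream of AKT, 7 of 14 tested genes of PI3K, PDK1 and the lipid phosphatases were positive, with a median of 0.014. PIK3R3, a regulatory subunit of PI3K, had a mean of 48.2 ± 3.14 CPM in untreated and 63.1 ± 3.01 CPM in raffinose libraries (log2 fold change 0.39, SE 0.075, edgeR adjusted p = 0.146). PHLPP2, a phosphatase that removes phosphate from AKT, was at 26.4 ± 1.35 and 31.8 ± 2.02 CPM (adjusted p = 0.272), and the insulin receptor substrate IRS2 at 14.4 ± 1.53 and 17.4 ± 1.23 CPM (adjusted p = 0.371). PDPK1, the kinase that activates AKT, was named after its values were seen. Raffinose replicates 1, 2 and 3 had 44.9, 35.4 and 14.6 CPM, and the untreated range was 37.7 to 44.4 CPM. Raffinose replicate 3 was thus the lowest library for PDPK1 as for AKT1S1. Other listed genes stood apart in other libraries. LAMTOR1 was highest in raffinose replicate 2 (94.7 CPM), and PIK3R2 was lowest in raffinose replicate 1 (22.4 CPM). A trait shared by genes within a library was not tested.

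Upstream of mTORC1, the TSC complex and RHEB had 3 of 5 positive genes and a median of 0.090. TBC1D7, a subunit of the TSC complex that restrains mTORC1, had a log2 fold change of 0.33, TSC1 had 0.12, and RHEB, the GTPase that activates mTORC1, had -0.19. The Rag GTPases, Ragulator and folliculin, which bring mTORC1 to lysosomes when amino acids are present, had 7 of 13 positive genes and a median of 0.052, with RRAGC at 0.19, RRAGD at 0.33 and LAMTOR5 at -0.084. The GATOR, KICSTOR and amino acid sensor genes had 9 of 18 positive and a median of 0.0096. NPRL3, a subunit of the GATOR1 brake on mTORC1, had a mean of 54.4 ± 1.88 CPM in untreated and 42.2 ± 3.64 CPM in raffinose libraries (log2 fold change -0.37, SE 0.082, edgeR adjusted p = 0.178). The arginine sensor family gene CASTOR2 (0.39) and the leucine sensor SESN2 (0.28) had positive values. Genes of AMPK, LKB1 and REDD had 5 of 8 positive and a median of 0.051. DDIT4, a stress-induced inhibitor of mTORC1, was at 30.6 ± 1.53 and 39.6 ± 1.72 CPM (log2 fold change 0.37, adjusted p = 0.151), the kinase gene STK11 had -0.16 and the AMPK subunit PRKAB2 0.19.

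Downstream, the mTORC1 substrates and cap-binding translation factors had 7 of 18 positive genes and a median of -0.022. EIF4B, an initiation factor that helps unwind messenger RNA, had a mean of 387 ± 42.3 CPM in untreated and 580 ± 73.7 CPM in raffinose libraries (log2 fold change 0.59, SE 0.12, edgeR adjusted p = 0.151). LARP1, which binds messenger RNAs of ribosomal proteins, had -0.23 (adjusted p = 0.199), and the autophagy kinase ULK1 0.19 (adjusted p = 0.245). The substrates of AKT and mTORC2 had 6 of 10 positive genes and a median of 0.12. The 3 with the smallest p were the FOXO factors, which AKT keeps out of the nucleus: for FOXO1 the untreated libraries had 2.62, 1.66 and 2.38 CPM and the raffinose libraries 4.04, 4.93 and 4.61 CPM (edgeR adjusted p = 0.151). FOXO4 had a log2 fold change of 0.62 (adjusted p = 0.159) and FOXO3 0.43 (adjusted p = 0.291). For all 3 the groups did not overlap, with raffinose higher, where 10.6% of all tested genes did so. The 3 were named by their p in the same fit, so this is not separate evidence. The other subunits and assembly factors of the mTOR complexes had 1 of 4 positive and a median of -0.12, with the assembly factors TTI1 at -0.15 and TELO2 at -0.094 and the mTORC2 subunit PRR5L at -0.22.

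**Figure D5:**
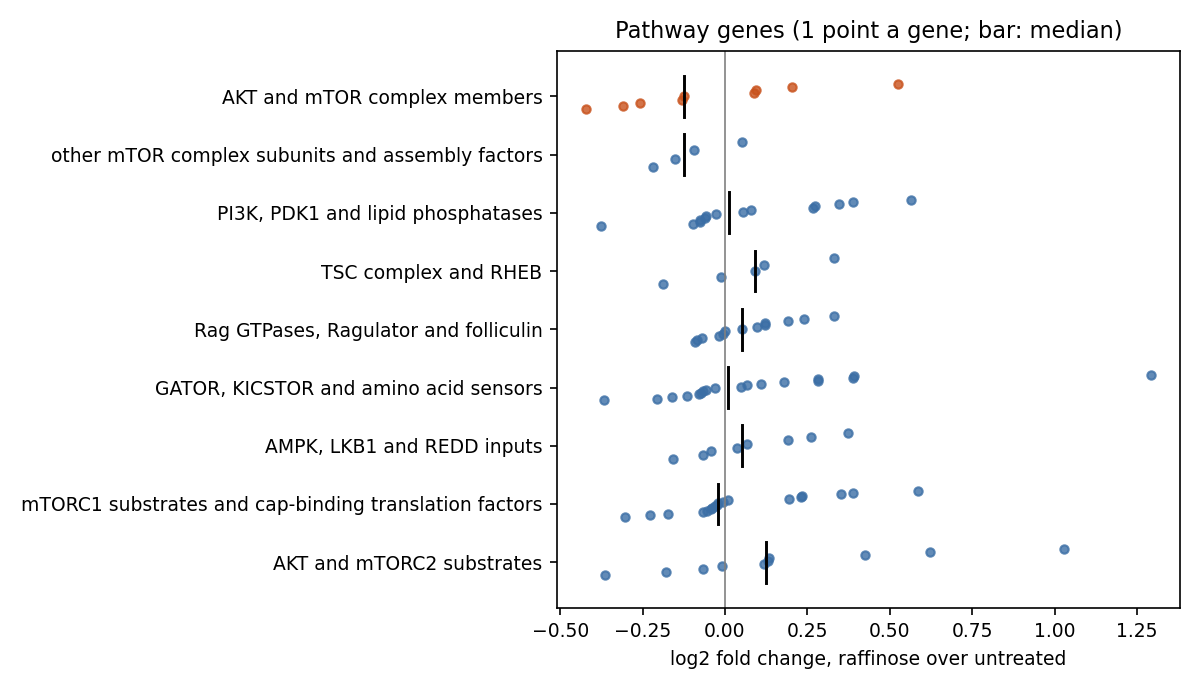
Log2 fold change of raffinose over untreated for the 9 genes (orange) and the 90 tested genes of 8 pathway lists (blue), with 1 point a gene and a bar at each median. Medians run from -0.13 for the 9 genes to 0.12 for the substrates of AKT and mTORC2, and no gene shown passed the edgeR threshold.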

How the data were processed

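Poly(A) RNA of 6 PANC-1 libraries was sequenced as strand-marked read pairs of 150 bases, per the labels' protocols. Tools listed without a role in the submitters' processing notes are StringTie 1.3.4d, HISAT2 2.0.4, cutadapt 1.9, DESeq2 and edgeR, and the genome build is not given in the sources used here. Per the file headers, the authors deposited FPKM and counts per gene. The deposited estimated counts are whole numbers with an excess at multiples of 4 (in raffinose replicate 1, 1382 genes at 4 and 286 at 5). Coordinates are those of the table. Of the 9 members 8 have the same start in GENCODE 29.

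The deposited counts entered edgeR 4.0.16 (R 4.3.3) without rescaling (filterByExpr with a minimum count of 10, TMM, glmQLFit, glmQLFTest), with adjustment over 18863 genes and a threshold of 0.05. Genes with no reads are listed at 0.0001 FPKM. Ratios were compared by exact permutation. Alternatives were DESeq2 1.42.0, its size factors, no filter, a filter at FPKM 1, limma 3.58.1 on log2(FPKM + 0.1) and log2(FPKM + 1), counts divided by 4, robust dispersion, the replicate block and each library left out. In simulated counts of this comparison (18863 genes), 50 genes were changed at each of 4 folds. Of these edgeR recovered 0% at 1.5-fold, 34% at 2-fold, 68% at 4-fold and 80% at 8-fold, with 8 false calls. DESeq2 recovered 10%, 54%, 80% and 88%, with 74 false calls at the same threshold. One marker gene of the design is not reported here. The members and lists were chosen with earlier results of these data known. The naming rule took all members, the 3 genes of each list with the smallest p, and for AKT1 and AKT2 the 3 genes with the nearest profile. Markers, overlapping genes and genes called by DESeq2 are also named. PDPK1, LAMTOR1, PIK3R2 and the neighbours of AKT2 were named after their values were seen.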

Additional observations from a re-analysis of the deposited data

How the results depend on the processing

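No member was called in any of the other settings run except by DESeq2, which called 2 lower (MLST8 and RPTOR), and of the listed pathway genes DESeq2 called 6 higher and 1 lower. Over all genes edgeR called 7 higher and 16 lower, DESeq2 254 and 409, and edgeR with a filter at FPKM 1 called 15 and 27. Genes called higher were 11 with limma on log2(FPKM + 0.1) and 11 with counts divided by 4. Fits that left out a library called between 0 and 15 higher and between 4 and 13 lower. Without untreated replicate 3 edgeR called the fewest, 0 and 4, and 1969 genes stood at an unadjusted p under 0.05. The cause of these differences was not tested.

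The replicate block gave 0 genes higher and 0 lower by edgeR (1932 at an unadjusted p under 0.05) and no member. Correlations between deviations of same-numbered libraries were -0.018, -0.063 and 0.014, so no pairing was seen, and the labels name none.

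With libraries left out, the log2 fold change ranged from -0.082 to 0.44 for DEPTOR and from -0.18 to 0.35 for RICTOR, and the log2 difference of the AKT2 to AKT1 ratio from -0.027 to 0.027. That of the RPTOR to RICTOR ratio ranged from -0.62 to -0.061. Counts were lowest for DEPTOR among the members, at 43 to 93, and the SE of the log2 fold change was 0.36 for DEPTOR, 0.32 for RICTOR and 0.30 for AKT1S1.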
